A study of Arabidopsis thaliana with 16 samples.

Results

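The 47 genes described here are the Arabidopsis thaliana genes whose symbol in the array annotation starts with CYP, GSTU, GSTF or ALDH, with or without a leading AT, followed by a digit. They were taken from 13356 genes that had a probe set of their own in that annotation. The rule itself uses symbols and no expression value, though it was set with earlier results of these data known, and each member had 1 probe set. The members were 24 cytochrome P450 genes, 11 tau-class glutathione transferase genes (GSTU), 2 phi-class glutathione transferase genes (GSTF), 8 aldehyde dehydrogenase genes (ALDH), and CYP59 and CYP71. CYP59 and CYP71 are annotated as cyclophilins, which are peptidyl-prolyl isomerases, and are not P450s despite their symbols. A total of 295 symbols of the RefSeq gene list fit the rule, so the 47 are a part of these families.

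Cytochrome P450s are haem monooxygenases that hydroxylate hormones, phenolics and foreign compounds. Glutathione transferases conjugate electrophiles to the tripeptide glutathione, and the tau and phi classes are the large plant classes known for responses to herbicides and stress. Aldehyde dehydrogenases oxidise reactive aldehydes to acids. Members of these families often lie side by side in the genome, and 25 of the 47 had another member of their own family within 10 genes, 19 of the 24 P450 genes being of the subfamily CYP71B.

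Transcripts were measured on 16 one-colour arrays, 2 for each of 8 groups, from roots of 5-day-old seedlings grown on agar in continuous light. Every group, controls included, carried gLBD16:GR, which is LBD16 joined to the steroid-binding part of the glucocorticoid receptor and driven by LBD16 sequences, in the lbd16-1 lbd18-1 lbd33-1 triple mutant. LBD16 is an auxin-induced transcription factor of lateral root initiation. Roots were exposed for 4 h to mock solution (0.1% DMSO), to 2 µM DEX (dexamethasone, the steroid that lets the fusion enter the nucleus), to 10 µM CHX (cycloheximide, which stops translation), to 1 µM NAA (a synthetic auxin), or to NAA+DEX, DEX+CHX, NAA+CHX or NAA+DEX+CHX. A line without the fusion was not analysed here, so effects of DEX itself cannot be told apart from those of the fusion.

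The labels call the replicate arrays independent sets without saying whether they came from separate cultures, so the p-values reflect the spread among these samples, which may be technical. Median intensity over the array was between 150.9 and 174.7 on the 8 arrays without CHX and between 179.2 and 189.2 on the 8 with CHX. Of 11 root markers and 6 green shoot markers, 1 each was named on a probe set of its own in the annotation used. The root marker was EXPA7, a root hair expansin, at 973 to 1382 without CHX and 597.7 to 1306 with CHX. The shoot marker was RCA, at 287.4 to 473.8 and 279.1 to 491.2. EXPA7 was not called in CHX vs mock (0.07, adjusted p 0.76) and was lower in NAA+CHX vs NAA (-0.90, adjusted p 0.00046), while RCA was called in neither. The part of these differences in the results below was not tested. LBD16 itself, whose signal could include the fusion, had an intensity of 474.1 ± 42.7 (SD, n = 2) in mock roots and 5145 ± 102 with NAA. In whole roots, fewer cells of a type and less RNA per cell cannot be told apart.

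Over the 9 treatment comparisons 29 of the 47 genes changed at least once, counted as an adjusted p under 0.05 in the limma model of log2(intensity + 16) over all 22746 probe sets. Of all probe sets 65 percent changed at least once, so the members' count is near the background. By class these were 10 of 24 P450 genes, 9 of 11 tau and 2 of 2 phi transferase genes, 7 of 8 aldehyde dehydrogenase genes and 1 of 2 cyclophilin genes. A mean intensity of at least 50 over the arrays was reached by 30 members, and only 3 of the 17 dimmer ones changed anywhere. The added constant compresses the differences and folds of dim probe sets, and detection calls were not used here. The comparisons share arrays and are not independent of each other. None of the calls of single members reversed its direction under the alternatives that were tried.

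NAA mostly lowered members where it changed them. Against mock, NAA changed 7 of 47 genes, 1 higher and 6 lower, while 13.4 percent of all probe sets changed, 7.3 percent higher and 6.07 percent lower. With active LBD16-GR, in NAA+DEX vs DEX, 10 members were lower and none higher, against 23.9 percent of all probe sets, 14.1 percent higher and 9.82 percent lower. Among probe sets with a mean intensity of at least 50 it gave 2 higher, ALDH3F1 and GSTU16, and 10 lower. The 6 genes lower with NAA alone were also among those 10. With only the mock and NAA arrays fitted, GSTU28 alone kept its NAA vs mock call. With translation blocked, in NAA+CHX vs CHX, limma called 0 members at an adjusted p under 0.05 and 0.167 percent of all probe sets, with 9 members at an unadjusted p under 0.05. The median log2 difference of the members was -0.08, -0.11 and -0.09 in these comparisons, against 0.05, 0.08 and 0.01 over all probe sets.

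CHX changed the members in both directions. In CHX vs mock 5 members were higher and 16 lower, while 50.1 percent of all probe sets changed, 23 percent higher and 27 percent lower. In NAA+CHX vs NAA 7 were higher and 16 lower, against 50.6 percent of all probe sets, 22 percent higher and 28.6 percent lower. As a share, 44.7 and 48.9 percent of the members changed, which is close to the background. Of the members 12 were lower and 4 higher in both comparisons, against 22.5 and 17.8 percent of all probe sets. The median log2 difference in CHX vs mock was -0.24 over the members and -0.04 over all probe sets, and in NAA+CHX vs NAA it was -0.05 and -0.06. When each array was centred on its median these became -0.40 and -0.20 in CHX vs mock and -0.14 and -0.15 in NAA+CHX vs NAA.

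**Figure D1:**
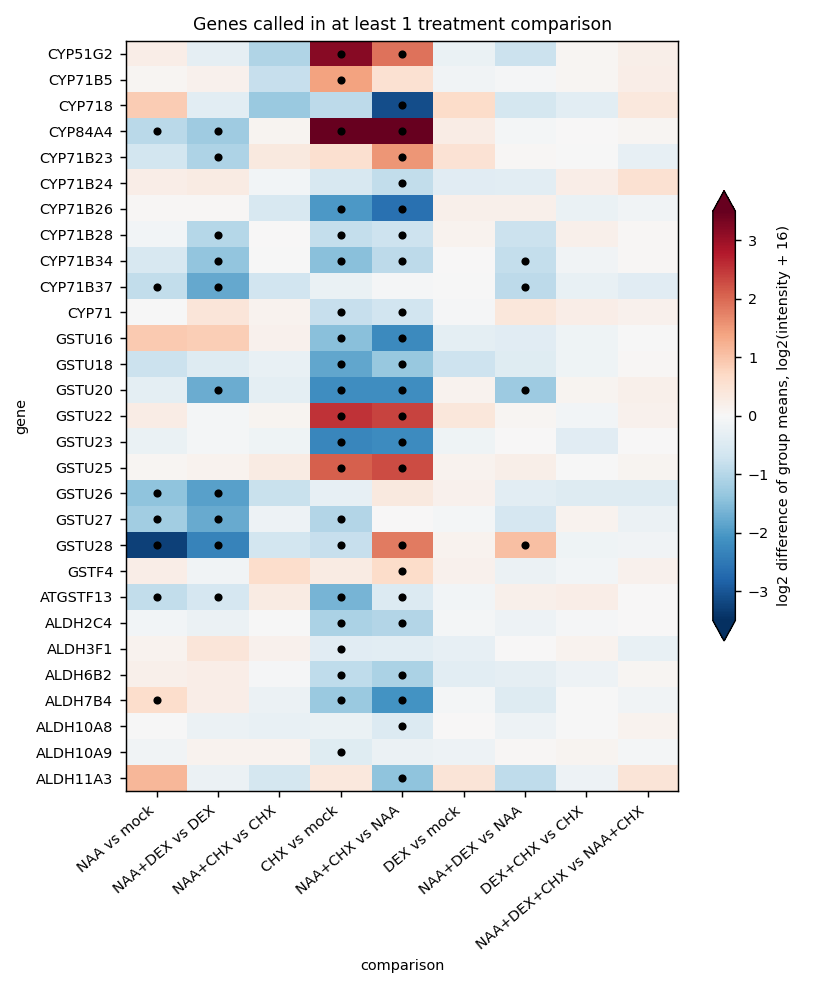
Log2 differences of group means on the log2(intensity + 16) scale for the 29 members that changed in at least 1 treatment comparison (rows), in 9 comparisons (columns), with red for higher and blue for lower in the first-named group and a black dot at an adjusted p under 0.05. The colour scale ends at 3.5 in either direction, and CYP84A4 exceeds it in both CHX columns. The dots are concentrated in the CHX columns and in NAA vs mock and NAA+DEX vs DEX, and no dot stands in DEX vs mock, DEX+CHX vs CHX, NAA+DEX+CHX vs NAA+CHX or NAA+CHX vs CHX.

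Among the tau-class transferases, NAA lowered GSTU28 (AT1G53680), GSTU26 (AT1G17190) and GSTU27 (AT3G43800). GSTU28 had an intensity of 1055 and 1214 on the mock arrays, 1302 and 1172 with DEX, 80.68 and 131.4 with NAA, and 251.1 and 215.1 with NAA+DEX. With CHX it was 574 and 708.1, with DEX+CHX 516.6 and 641.4, with NAA+CHX 358.8 and 458.5, and with NAA+DEX+CHX 375.5 and 364.5. The NAA arrays were the lowest of all 16, and no array of NAA overlapped any array of mock or of NAA+CHX. Against mock, NAA lowered GSTU28 9.61-fold, a log2 difference of -3.27 (SE 0.21, adjusted p 2.6e-06). In the presence of DEX the log2 difference was -2.33 (adjusted p 2.1e-05), and in the presence of CHX it was -0.63, which did not pass the test (adjusted p 0.27, 95% interval -1.1 to -0.16). GSTU28 was the gene with opposite calls under CHX: it was lower in CHX vs mock (-0.81, adjusted p 0.0075) and higher in NAA+CHX vs NAA (1.82, adjusted p 2.1e-05). The first of these lost its call without mock replicate 2 or CHX replicate 1 (adjusted p 0.051 to 0.064).

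GSTU27 had intensities of 1657 and 2199 in mock, 796.8 and 814.5 with NAA, 1920 and 1756 with DEX, and 558.6 and 501.2 with NAA+DEX. The NAA arrays were below the mock arrays and the NAA+DEX arrays were the lowest of the 16. The log2 difference was -1.23 (SE 0.16, adjusted p 0.00041) against mock and -1.76 (adjusted p 1.7e-05) against DEX. CHX alone also lowered GSTU27, by a log2 difference of -1.04 (adjusted p 0.00017), and the arrays with CHX were between 664.3 and 1054. NAA+CHX did not differ from CHX beyond the spread, at -0.19 (95% interval -0.53 to 0.15).

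GSTU26 had intensities of 2084 and 3290 in mock, 991.9 and 972 with NAA, and 637.8 and 906.1 with NAA+DEX. The mock arrays differed from each other more than the NAA arrays did, yet the groups did not overlap. The log2 difference was -1.40 against mock (SE 0.24, adjusted p 0.0027) and -1.91 against DEX (adjusted p 2e-04). With CHX present the difference between NAA+CHX, at 1350 and 1147, and CHX, at 2041 and 2275, was -0.78 and did not pass the test (adjusted p 0.22). CHX alone left GSTU26 without a call (-0.28, adjusted p 0.37).

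**Figure D2:**
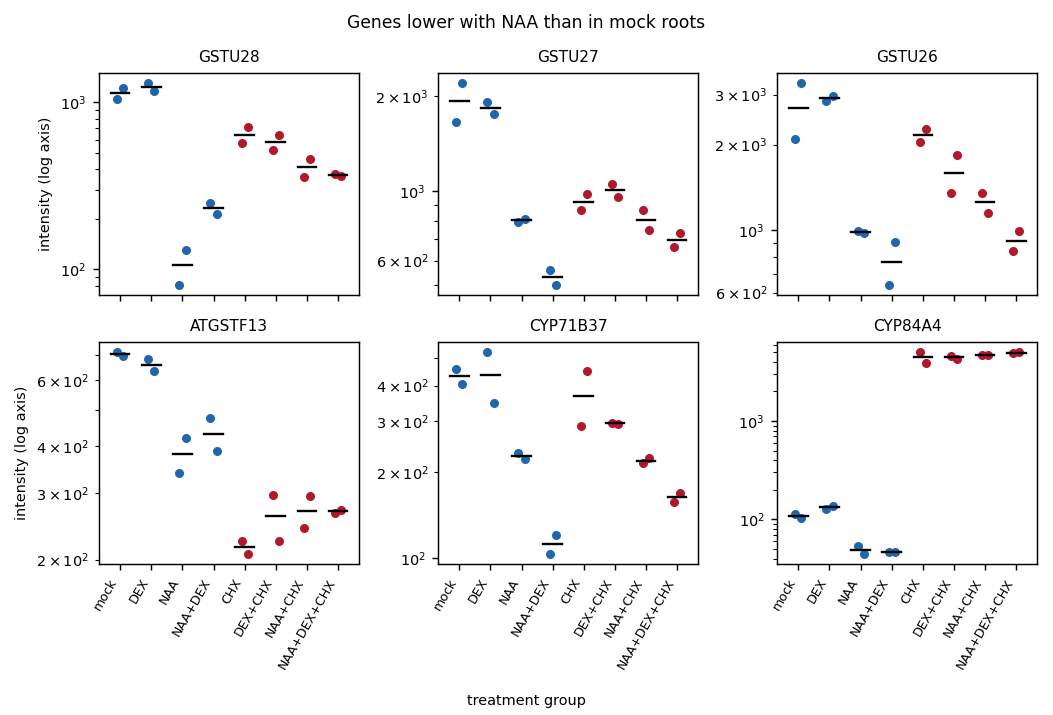
Intensity (log axis) of the 6 members lower in NAA than in mock roots, GSTU28, GSTU27, GSTU26, ATGSTF13, CYP71B37 and CYP84A4, in the 8 treatment groups, with points for the 2 arrays of a group, bars for the group means, blue for groups without CHX and red for groups with CHX. In each panel both NAA arrays and both NAA+DEX arrays lie below the mock and DEX arrays, and in the CYP84A4 panel every red point lies far above every blue one.

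GSTU22 (AT1G78340) and GSTU25 (AT1G17180), tau-class enzymes known from responses to xenobiotics, both rose with CHX. Of a list of 16 transferases with that property, only these 2 were named on a probe set of their own. GSTU22 had intensities of 2512 and 3199 in mock, 3723 and 3686 with DEX, 3329 and 3408 with NAA, and 3360 and 3774 with NAA+DEX. All 8 arrays with CHX were between 15135 and 19963, so the arrays with and without CHX were far apart. CHX raised GSTU22 5.76-fold over mock (log2 difference 2.53, SE 0.14, adjusted p 3.8e-08) and 5.19-fold over NAA (2.37, adjusted p 6e-08). GSTU25 was between 3139 and 4325 without CHX and between 13485 and 18876 with it, and rose 4.23-fold over mock (2.08, SE 0.13, adjusted p 1.1e-07) and 4.87-fold over NAA (2.29, adjusted p 4.7e-08).

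In a stretch of tau transferase genes, neighbours were called in opposite directions with CHX. GSTU23, GSTU22, GSTU21 and GSTU20 lie within one stretch from AT1G78320 to AT1G78370. GSTU23 was 390.3 and 482.7 in mock and 63.67 and 90.87 with CHX, and fell by 2.29 on the log2 scale (SE 0.20, adjusted p 2.2e-06). GSTU20 fell by 2.17 (SE 0.21, adjusted p 4.5e-06), while GSTU21, between 20.69 and 85.23 over the arrays, gave 0.12 with a 95% interval of -0.74 to 0.98. GSTU23, GSTU22 and GSTU20 repeated their directions in NAA+CHX vs NAA, at -2.21, 2.37 and -2.18. In the pair of GSTU25 and GSTU26, the first rose with CHX and was not called with NAA, and the second was lowered by NAA and was not called with CHX.

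**Figure D3:**
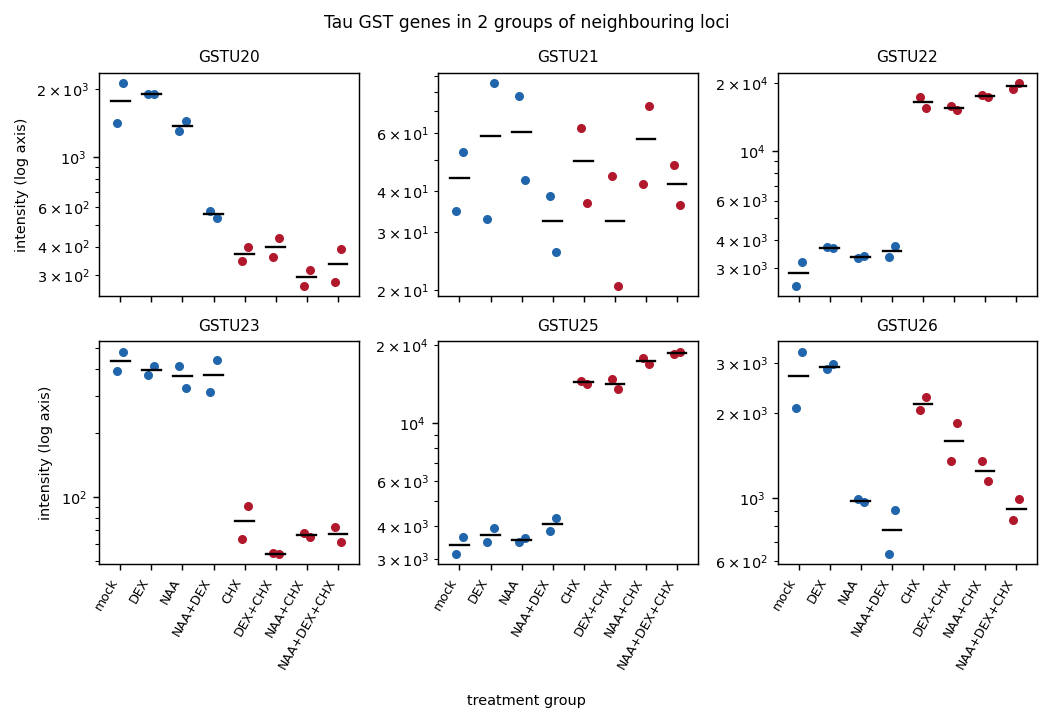
Intensity (log axis) of 6 tau transferase genes from 2 groups of neighbouring loci, GSTU20 to GSTU23 and GSTU25 with GSTU26, in the 8 treatment groups, with points for arrays, bars for group means, blue without CHX and red with CHX. Red points lie above all blue points for GSTU22 and GSTU25, below all blue points for GSTU20 and GSTU23, and among the blue points for GSTU21 except 1 DEX+CHX array at 20.69, which is the lowest.

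GSTU16 (AT1G59700) and GSTU18 (AT1G10360) were lower with CHX in both comparisons. GSTU16 was 133.1 and 112.3 in mock, 237.6 and 249.2 with NAA, 30 and 38.69 with CHX, and 31.01 and 49.49 with NAA+CHX. Its NAA arrays were above its mock arrays, but the log2 difference of 0.91 did not pass the test (adjusted p 0.075). It passed with a pseudocount of 64 (adjusted p 0.0094), a mean intensity of at least 50 (adjusted p 0.037), the intensity-dependent robust prior (adjusted p 0.049) and without either DEX+CHX array (adjusted p 0.022). NAA+DEX vs DEX gave 0.86 (adjusted p 0.06), which passed under the same 5 alternatives (adjusted p 0.011 to 0.043). Under CHX it fell by 1.46 against mock (adjusted p 0.0017) and by 2.22 against NAA (adjusted p 6.9e-05). GSTU18 fell by 1.81 (adjusted p 0.00024) and by 1.32 (adjusted p 0.0022), from 309.3 and 190.7 in mock to 48.32 and 69.32 with CHX. GSTU15, the neighbour of GSTU16, stayed between 5.937 and 52.96 and was not called.

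Both phi-class genes changed. ATGSTF13 (AT3G62760) had intensities of 711.9 and 692.7 in mock, 340.5 and 421.2 with NAA, 224.4 and 207.2 with CHX, and 243.3 and 295.2 with NAA+CHX. Its mock and DEX arrays were above all 12 others. It was lowered by NAA (-0.86, SE 0.17, adjusted p 0.0062), by NAA in the presence of DEX (-0.60, adjusted p 0.025), by CHX (-1.63, adjusted p 8.1e-06) and by CHX in the presence of NAA (-0.47, adjusted p 0.034). Without NAA replicate 1 the NAA vs mock call was lost at an adjusted p of 0.064. The NAA+DEX vs DEX call was lost without either DEX array or NAA+DEX replicate 2 (adjusted p 0.07 to 0.16), and the NAA+CHX vs NAA call without NAA replicate 2 or NAA+CHX replicate 1 (adjusted p 0.21 to 0.22). GSTF4 (AT1G02950) was higher with CHX in the presence of NAA, at 691.4 and 592 against 436.5 and 368.8, a log2 difference of 0.65 (adjusted p 0.011). That call was lost without NAA replicate 2 or NAA+CHX replicate 1 (adjusted p 0.079 to 0.08), and CHX vs mock gave 0.27 (adjusted p 0.25).

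CYP84A4 (AT5G04330), a P450 of arabidopyrone synthesis and a relative of ferulate 5-hydroxylase, had a highest group mean 107-fold above its lowest, the widest such ratio among the P450 genes. It had intensities of 112.9 and 103.7 in mock, 128.8 and 136.3 with DEX, 53.7 and 44.7 with NAA, and 46.49 and 46.22 with NAA+DEX. With CHX it was 5038 and 3857, with DEX+CHX 4576 and 4288, with NAA+CHX 4729 and 4677, and with NAA+DEX+CHX 4889 and 4999. The groups with NAA but no CHX were lowest and all groups with CHX were high, the NAA+CHX arrays lying between the CHX arrays. CHX raised CYP84A4 35.6-fold over mock (log2 difference 5.15, SE 0.14, adjusted p 2.4e-10) and 72.5-fold over NAA (6.18, adjusted p 1.1e-10). NAA lowered it by a log2 difference of -0.93 against mock (adjusted p 0.0013) and of -1.25 in the presence of DEX (adjusted p 9.8e-05), and in the presence of CHX the difference was 0.09 (95% interval -0.22 to 0.40).

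CYP51G2 (AT2G17330), a paralogue of the sterol 14-demethylase gene and a transcribed pseudogene in the RefSeq annotation, also rose with CHX. It was between 30.38 and 79.92 on the arrays without CHX, 574.3 and 804.5 with CHX, and 330.3 and 305.5 with NAA+CHX. The log2 difference was 3.18 over mock (SE 0.25, adjusted p 9.2e-07) and 1.89 over NAA (adjusted p 5.8e-05). The arrays of NAA+CHX were below those of CHX, with a difference of -1.06 that did not pass the test at an adjusted p of 0.13 but did with a pseudocount of 64 (adjusted p 0.016) and when the prior variance was robust and followed intensity (adjusted p 0.033). CYP71B5 (AT3G53280) rose from 2.358 and 2.81 in mock to 28.57 and 38.11 with CHX (1.40, adjusted p 0.0017). At such low intensities the size rests on the pseudocount, and the difference was 3.25 with a pseudocount of 1 and 0.55 with 64. In NAA+CHX vs NAA CYP71B5 was not called (0.53, adjusted p 0.16), at 21.29 and 5.082 against 4.419 and 2.467.

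CYP71B26 (AT3G26290) and CYP71B34 (AT3G26300), from one stretch of CYP71B loci, both fell with CHX. CYP71B26 was between 320.7 and 467.8 on the 8 arrays without CHX and between 32.7 and 83.59 on the 8 with it. The log2 difference was -2.01 against mock (SE 0.21, adjusted p 7.7e-06) and -2.62 against NAA (adjusted p 8.1e-07), and NAA itself gave no call. CYP71B34 was 203.6 and 240.7 in mock, 150.7 and 141.4 with NAA, 79.78 and 69.69 with NAA+DEX, and between 57.39 and 84.49 on the arrays with CHX. The NAA+DEX arrays of CYP71B34 were thus in the range of the CHX arrays. CHX lowered CYP71B34 by a log2 difference of -1.45 against mock (adjusted p 3.7e-05) and of -0.92 against NAA (adjusted p 0.0011). NAA+DEX vs DEX gave -1.39 for CYP71B34 (adjusted p 0.00027). NAA vs mock gave -0.55, which did not pass the test (adjusted p 0.07). It passed with a pseudocount of 64, a mean intensity of at least 50 or median centring (adjusted p 0.029 to 0.048).

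NAA lowered CYP71B37 (AT3G26330), from the same stretch, which holds 11 measured CYP71B loci. It was 457.6 and 404.5 in mock, 233.1 and 222.3 with NAA, 523.8 and 347.5 with DEX, and 103.8 and 121.1 with NAA+DEX. The NAA+DEX arrays were the lowest of the 16. The log2 difference was -0.87 against mock (adjusted p 0.021) and -1.79 against DEX (SE 0.21, adjusted p 0.00015). The first call was lost without any 1 of the 4 arrays compared (adjusted p 0.055 to 0.094). CHX gave no call for CYP71B37, at -0.25 against mock and -0.05 against NAA. In the presence of CHX, NAA gave -0.68 for this gene, which did not pass the test (adjusted p 0.24). The NAA+CHX arrays, at 214.6 and 223.9, were below the CHX arrays, at 288.7 and 448.7. The difference of its NAA effect with and without CHX was 0.20 and was not called (adjusted p 0.81).

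CYP71B23 (AT3G26210) was higher with CHX where NAA was present. Of a list of 12 P450s known for chemical or stress responses, it alone was named on a probe set of its own. It was 107.7 and 134.1 with NAA and 414.6 and 354.4 with NAA+CHX, a log2 difference of 1.55 (SE 0.29, adjusted p 0.00082). Its mock arrays, at 138.8 and 273.4, overlapped the CHX arrays at 331.4 and 266.7, and that comparison gave 0.57 (adjusted p 0.13), or 1.02 without mock replicate 2, which passed (adjusted p 0.013). It was lower in NAA+DEX than in DEX (-1.08, adjusted p 0.021), a call lost without DEX replicate 1 or NAA+DEX replicate 1 (adjusted p 0.13). CYP71B28 (AT1G13090) was lower in NAA+DEX vs DEX (-0.99, adjusted p 0.019), CHX vs mock (-0.85, adjusted p 0.018) and NAA+CHX vs NAA (-0.73, adjusted p 0.037). Leaving out any 1 of the arrays compared ended each of the CHX calls (adjusted p 0.056 to 0.17), and leaving out DEX replicate 1 or NAA+DEX replicate 1 ended the other, with a difference of -0.65 without the latter.

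CYP718 (AT2G42850) differed between the replicates of a treatment. With CHX it was 105.6 and 3.322, and with DEX+CHX 55.48 and 3.956, while mock gave 58.59 and 96.12. Both NAA+CHX arrays were low, at 3.684 and 3.937, against 149.5 and 158.4 with NAA, so CHX arrays and mock arrays overlapped while the NAA arrays and the NAA+CHX arrays did not. CYP718 fell by 3.10 on the log2 scale in NAA+CHX vs NAA (SE 0.72, adjusted p 0.0036), with -5.01 at a pseudocount of 1 and -1.68 at 64. CHX vs mock gave -0.92 (adjusted p 0.33), and without CHX replicate 1 it gave -2.24 and passed (adjusted p 0.0096). CYP71B24 was between 1.004 and 25.68 over the arrays and was called lower in NAA+CHX vs NAA (-0.87, adjusted p 0.029), with values from -0.30 to -2.73 across the alternatives and the call lost without NAA replicate 1 or either NAA+CHX array (adjusted p 0.081 to 0.26). Without NAA replicate 1 its difference was -0.48.

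**Figure D4:**
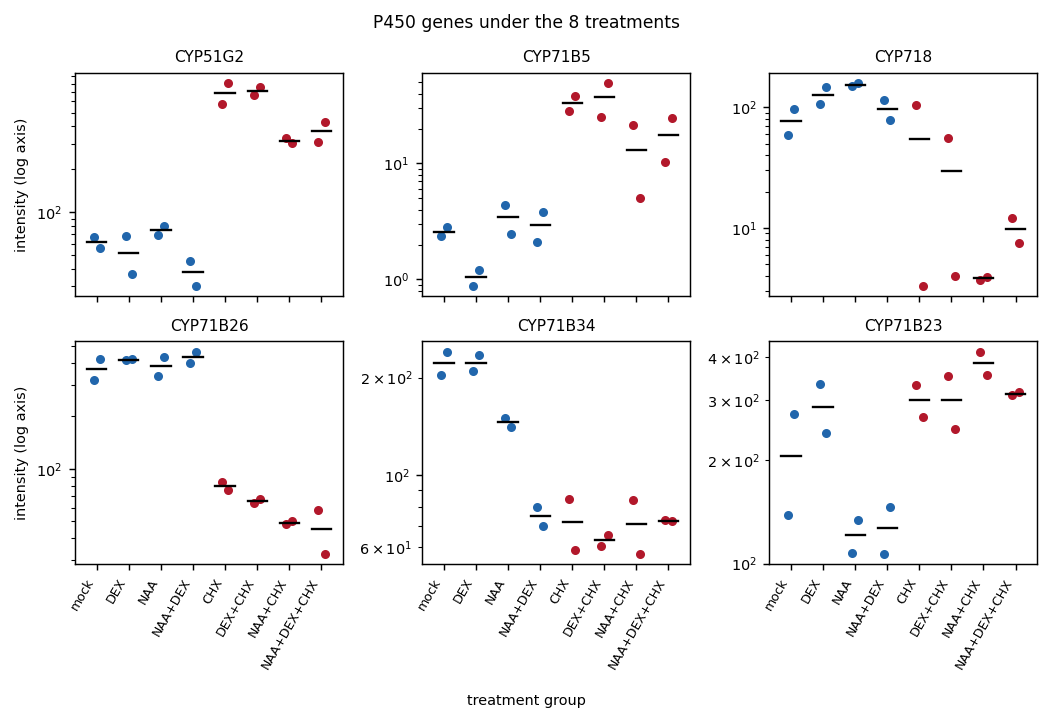
Intensity (log axis) of 6 P450 genes, CYP51G2, CYP71B5, CYP718, CYP71B26, CYP71B34 and CYP71B23, in the 8 treatment groups, with points for arrays, bars for group means, blue without CHX and red with CHX. Red points lie above all blue points for CYP51G2 and CYP71B5 and below all blue points for CYP71B26, and the red points of CYP718 spread from 3.322 to 105.6.

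The aldehyde dehydrogenases that changed with CHX were lower in every case: 5 of 8 in CHX vs mock and 5 of 8 in NAA+CHX vs NAA, with median log2 differences of -0.41 and -0.75 over the 8 genes. Over all probe sets 27 and 28.6 percent were lower, with medians of -0.04 and -0.06. ALDH7B4 (AT1G54100), a stress-responsive family member, was 2571 and 3017 in mock, 4189 and 4301 with NAA, 2504 and 2784 with DEX, and 2941 and 3269 with NAA+DEX. All 8 arrays with CHX were between 844.8 and 1184, below every array without CHX. The log2 difference was -1.30 against mock (SE 0.14, adjusted p 9e-06) and -2.10 against NAA (adjusted p 1.6e-07). NAA raised ALDH7B4 over mock by 0.61 (adjusted p 0.013), the 1 member called higher with NAA. That call was lost without mock replicate 1 or either NAA array (adjusted p 0.063 to 0.067) and with each array centred on its median (adjusted p 0.051), which left 0 members higher and 7 lower in NAA vs mock. That split was 3 higher and 8 lower with a pseudocount of 64, and 2 higher and 7 lower with a mean intensity of at least 50 or the intensity-dependent robust prior.

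ALDH2C4 (AT3G24503), which oxidises coniferaldehyde and sinapaldehyde to hydroxycinnamic acids, was between 3838 and 5129 without CHX and between 2122 and 2630 with it. It fell by 1.10 against mock (SE 0.14, adjusted p 3.6e-05) and by 1.03 against NAA (adjusted p 5.6e-05). ALDH6B2 (AT2G14170), a methylmalonate semialdehyde dehydrogenase, fell by 0.88 (SE 0.15, adjusted p 0.00047) and by 1.11 (adjusted p 7.4e-05), with 2865 and 2395 in mock and 1390 and 1442 with CHX. Arrays with and without CHX did not overlap for either gene.

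The other aldehyde dehydrogenase calls were smaller or rested on few arrays. ALDH10A8 (AT1G74920), an aminoaldehyde dehydrogenase, was 2442 and 2244 with NAA and 1666 and 1689 with NAA+CHX (-0.48, SE 0.11, adjusted p 0.003). ALDH10A9 (AT3G48170), its paralogue, was lower in CHX vs mock (-0.42, adjusted p 0.035), and leaving out any 1 of the mock and CHX arrays ended the call (adjusted p 0.059 to 0.16). ALDH3F1 (AT4G36250) was lower in CHX vs mock (-0.40, adjusted p 0.045). Its call was lost when any of 13 of the 16 arrays was left out (adjusted p 0.05 to 0.28), the exceptions being mock replicate 2 and both DEX arrays, and its difference was -0.24 without mock replicate 1. With the replicate number as a block its adjusted p was 0.055. ALDH11A3 (AT2G24270), a non-phosphorylating glyceraldehyde-3-phosphate dehydrogenase, was 15.73 and 24.94 in mock and 23.23 and 38.72 with CHX, without a call (0.36, adjusted p 0.48). With NAA it was 69.37 and 59.36, and the difference of 1.15 from mock did not pass the test (adjusted p 0.078). That difference passed with a pseudocount of 64 (adjusted p 0.023). With NAA+CHX it was 33.25 and 2.878 and was called lower than with NAA (-1.40, adjusted p 0.01). The call was lost without NAA replicate 1 or NAA+CHX replicate 2 (adjusted p 0.057 to 0.11), the difference was -0.70 without the latter, and it ran from -0.67 to -2.50 with the pseudocount.

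**Figure D5:**
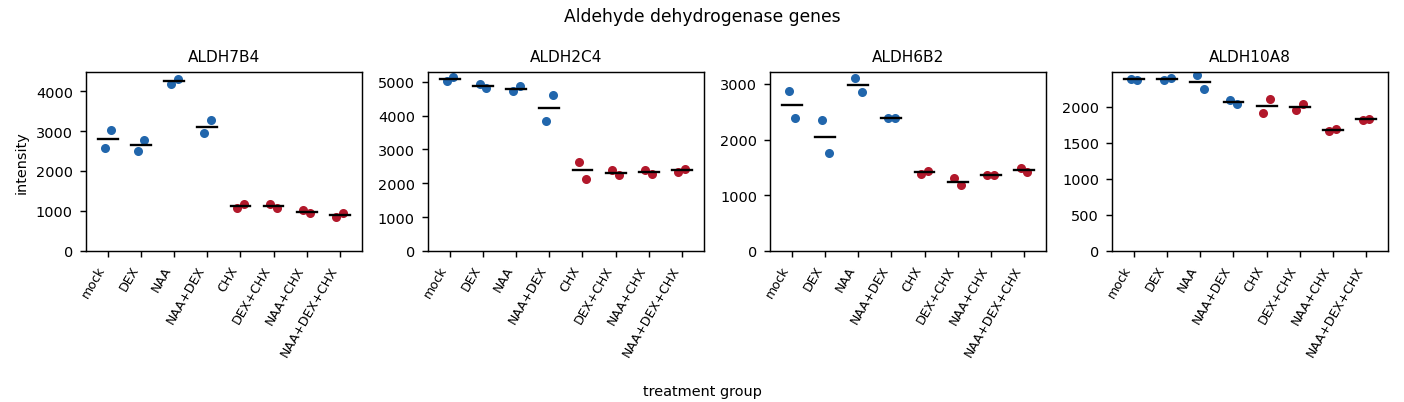
Intensity (linear axis from 0) of the aldehyde dehydrogenase genes ALDH7B4, ALDH2C4, ALDH6B2 and ALDH10A8 in the 8 treatment groups, with points for arrays, bars for group means, blue without CHX and red with CHX. For ALDH7B4, ALDH2C4 and ALDH6B2 every red point lies below every blue one, and the NAA arrays of ALDH7B4, at 4189 and 4301, are above all others.

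CYP71 (AT3G44600), a WD40-repeat cyclophilin of chromatin regulation, was 790 and 586.6 in mock and 438 and 332.9 with CHX, a log2 difference of -0.81 (adjusted p 0.0056). In NAA+CHX vs NAA it gave -0.67 (adjusted p 0.015). The first call was lost without mock replicate 1 or CHX replicate 2 (adjusted p 0.055 to 0.058), and the second without either NAA array or NAA+CHX replicate 2 (adjusted p 0.05 to 0.082). CYP59 (AT1G53720), an RNA-binding cyclophilin, was between 176.4 and 421.1 and was not called, with 0.51 in CHX vs mock (adjusted p 0.061), a difference that passed under 5 alternatives (adjusted p 0.034 to 0.049).

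DEX changed 4 members, all in NAA+DEX vs NAA. There 1 member was higher and 3 were lower, while 2.93 percent of all probe sets changed, 1.22 percent higher and 1.71 percent lower. At an adjusted p under 0.05 limma called 0 members in DEX vs mock, in DEX+CHX vs CHX and in NAA+DEX+CHX vs NAA+CHX, with 5, 1 and 4 at an unadjusted p under 0.05 and 0.0528, 0.0528 and 0.11 percent of all probe sets called. All 4 members called in NAA+DEX vs NAA were also called lower in NAA+DEX vs DEX, which shares the NAA+DEX arrays, GSTU28 thus having opposite calls there.

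GSTU20 (AT1G78370), a tau transferase known as FIP1 that interacts with the jasmonate-conjugating enzyme JAR1, had the largest of these DEX differences. It was 1417 and 2120 in mock, 1906 and 1902 with DEX, 1308 and 1441 with NAA, and 576.3 and 535.6 with NAA+DEX. With CHX its 8 arrays were between 269 and 438.8. Among the arrays without CHX the NAA+DEX pair was the lowest, at a log2 difference of -1.28 from NAA (SE 0.21, adjusted p 0.0064) and of -1.75 from DEX (adjusted p 0.00015). NAA alone gave -0.33 (adjusted p 0.35) and DEX alone 0.13 (95% interval -0.32 to 0.59). The NAA+DEX vs NAA call was lost without NAA replicate 2 or NAA+DEX replicate 2 (adjusted p 0.052 to 0.058).

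CYP71B34 fell by 0.84 (adjusted p 0.031) and CYP71B37 by 0.93 (adjusted p 0.043) in NAA+DEX vs NAA. GSTU28 was higher there by 1.06 (adjusted p 0.022), with 251.1 and 215.1 against 80.68 and 131.4. Each of these calls was lost when single arrays were left out. For CYP71B34 any 1 of the 4 arrays compared ended it (adjusted p 0.1 to 0.17), for GSTU28 NAA replicate 1 or either NAA+DEX array (adjusted p 0.068 to 0.16), and for CYP71B37 any of 12 arrays, the exceptions being both DEX and both CHX arrays (adjusted p 0.052 to 0.23). CYP71B37 also had no call in this comparison with the replicate number as a block (adjusted p 0.063). GSTU27 was called lower in NAA+DEX vs NAA only under alternatives. These were a pseudocount of 64 (-0.55, adjusted p 0.034), a mean intensity of at least 50 (-0.59, adjusted p 0.037) and, among others, the intensity-dependent robust prior (-0.59, adjusted p 0.016). That prior also called ALDH7B4 lower (-0.45, adjusted p 0.034).

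The difference of the DEX effect between auxin states was tested itself. In the DEX by NAA interaction without CHX limma called 0 members, with 9 at an unadjusted p under 0.05, and 0.822 percent of all probe sets. In the DEX by CHX interaction with NAA it called 0 members, with 7 at an unadjusted p under 0.05, and 0.668 percent of all probe sets. GSTU20 came nearest, at -1.42 (SE 0.29, adjusted p 0.059) and 1.45 (SE 0.29, adjusted p 0.058), and passed in both under some alternatives. The difference of the NAA effect with and without CHX was called for 5 members, 4 higher and 1 lower, against 4.51 percent of all probe sets, 2.05 percent higher and 2.45 percent lower. These were GSTU28, ATGSTF13, GSTU27, CYP84A4 and ALDH7B4. The root marker EXPA7 gave -0.96 in the same interaction (adjusted p 0.032), and its part in the members' values was not tested.

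Of the 47 members 18 changed in none of the 9 treatment comparisons, and 14 of them had a mean intensity under 50. Under at least 1 alternative 9 of the 18 passed in some comparison. The 4 of the 18 at or above that intensity were ALDH22A1, CYP59, CYP71B6 and CYP71B29. CYP71B6 (AT2G24180), which acts on indole-3-acetonitrile, was between 1131 and 1670 on the 16 arrays, with 0.02 in CHX vs mock (95% interval -0.31 to 0.34). CYP71B29 was between 65.6 and 136.7, and ALDH22A1 between 763.3 and 1353, with 0.32 in NAA+CHX vs NAA that became 0.58 and passed without NAA replicate 1 (adjusted p 0.018). CYP78A9 (AT3G61880), an organ size P450, was between 15.6 and 69.77, with 57.58 and 59.23 in mock against 34.74 and 21.69 with NAA, a difference of -0.77 that did not pass the test (adjusted p 0.13). CYP79A2, which makes phenylacetaldoxime, was between 0.747 and 8.53. In the stretch of 11 neighbouring CYP71B loci, 5 changed and CYP71B16, CYP71B21, CYP71B22, CYP71B25, CYP71B35 and CYP71B36 were not called, each of these being under 50 on average. CYP71B35 was 33.78 and 34.21 in mock and 5.331 and 2.834 with NAA (-1.32, adjusted p 0.065). That difference passed with the intensity-dependent robust prior (adjusted p 0.044) and with only the arrays compared (adjusted p 0.032). NAA+CHX vs CHX gave -1.22 (adjusted p 0.29) and NAA+DEX vs DEX -0.12 (adjusted p 0.89).

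Few other genes of detoxification could be followed, since 1 of 12 listed genes of other transferase classes, 2 of 10 of glutathione supply and 4 of 30 of later conjugation and export were named on a probe set of their own in the annotation used. None of 9 listed P450 reductase and cytochrome b5 genes or of 24 P450 genes known by another symbol was named there, and probe sets without a listed gene could not be searched for them. GSTL3 (AT5G02790), a lambda-class transferase, fell by 1.21 in CHX vs mock (adjusted p 0.00062) and by 1.05 in NAA+CHX vs NAA (adjusted p 0.0016). The glutathione reductase genes GR (AT3G54660) and GR1 (AT3G24170), whose products regenerate reduced glutathione, were also lower in both, at -0.97 and -1.12 for GR and at -0.95 and -1.33 for GR1. GR1 was 4224 and 4329 in mock and 2205 and 2198 with CHX. The glucosyltransferase genes UGT73B4 (AT2G15490) and UGT73B5 (AT2G15480) were higher, at 3.16 and 2.80 for UGT73B4 and at 2.39 and 3.10 for UGT73B5. UGT73B4 was 255.2 and 359.7 in mock and 3159 and 2559 with CHX. UGT73B1 and UGT73C1 were not called in either CHX comparison.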

How the data were processed

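Biotin-labelled cRNA from total RNA was hybridised to 16 one-colour Affymetrix arrays. The deposited values are linear-scale intensities, 1 for each probe set on each array, made by the authors with Affymetrix Expression Console 1.3, per the submitters' processing notes. How they were summarised and scaled is not given in the sources used here, and the 2% trimmed mean was 500 on every array. Per the labels' protocols 2 labelling kits were used without being assigned to these arrays, so no labelling batch could be tested. The number of arrays limits the precision.

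Groups came from the array titles. Of 22810 probe sets, 64 controls were left out and 22746 tested without a filter as log2(intensity + 16), which understates changes of dim genes. All 16 arrays entered 1 group-means fit in limma 3.58.1 (R 4.3.3) with moderated variances and 8 residual degrees of freedom. There were 12 comparisons. Within each comparison the two-sided p-values were adjusted over the whole table (Benjamini-Hochberg), and changed means an adjusted p under 0.05. Differences are log2 of the first-named group minus the second. The fit was tested on simulated data.

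Probe sets were named from the array's annotation and the RefSeq gene table: 13513 had 1 gene, 503 several and 8730 none listed. All 47 members matched the RefSeq table, and 1 fitting probe set with several genes was left out. CYP718 would count as a cyclophilin by its symbol and was classed as a P450 from its RefSeq synonyms, after the data were seen. Cross-hybridisation between family members was not tested. No coordinates are given, as no genome build is named. Sequences are not used here. The members, lists and tests were chosen with earlier results of these data known. Named were, per comparison, up to 12 called members each way for NAA vs mock and CHX vs mock and up to 6 otherwise, up to 6 called members per class or list, and up to 4 other listed genes. Others, named for completeness after their values were seen, include neighbours of named genes.

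Alternatives were pseudocounts of 1 and 64, a mean intensity of at least 50, quantile normalization, median centring, an intensity trend with robust prior, array weights, the replicate number as a block, a fit of only the arrays compared, and leaving out each array. Deviations of same-numbered arrays correlated between -0.06 and 0.07 over 28 pairs of groups, so numbers were not taken as pairs.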

Additional observations from a re-analysis of the deposited data

Results flagged for a closer look

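The effect of NAA differed between roots with and without CHX, by the interaction term of the limma model, for 5 of the 47 members, which is 10.6 percent against 4.51 percent of all probe sets. For GSTU28 the interaction was 2.63 (SE 0.30, adjusted p 0.00054), NAA changing the log2 level by -3.27 without CHX and by -0.63 with it. GSTU28 kept this call under all 25 alternatives, with values from 2.25 to 2.94. CYP51G2 was not called, at -1.29 (SE 0.35, adjusted p 0.071). It was called lower with a pseudocount of 64 (-1.11, adjusted p 0.014) and a mean intensity of at least 50 (adjusted p 0.031). The intensity-dependent robust prior also called it lower (adjusted p 0.025). ALDH11A3 was called lower with a pseudocount of 64 (-0.84, adjusted p 0.05).

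For ATGSTF13 the interaction was 1.16 (SE 0.24, adjusted p 0.02), with NAA effects of -0.86 and 0.29. It was lost without CHX replicate 2, NAA replicate 1 or NAA+CHX replicate 2 (adjusted p 0.07 to 0.085). For GSTU27 it was 1.04 (SE 0.22, adjusted p 0.023), with -1.23 and -0.19, and was lost without mock replicate 2, CHX replicate 1, either NAA array or NAA+CHX replicate 1 (adjusted p 0.058 to 0.089). For CYP84A4 it was 1.03 (SE 0.20, adjusted p 0.014), with -0.93 and 0.09, and was lost without NAA replicate 2 or either NAA+CHX array (adjusted p 0.052 to 0.054).

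For ALDH7B4 the interaction was -0.80 (SE 0.19, adjusted p 0.039), with NAA effects of 0.61 and -0.20. It was lost when any array but mock replicate 2 was left out (adjusted p 0.051 to 0.14) and with median centring (adjusted p 0.094), which left 4 members higher and 0 lower. All 5 genes had different levels in CHX and mock roots: CHX vs mock was called lower for GSTU28, ATGSTF13, GSTU27 and ALDH7B4 and higher for CYP84A4 (5.15), the call of GSTU28 being lost without mock replicate 2 or CHX replicate 1 (adjusted p 0.051 to 0.064). The root marker EXPA7 had an interaction of its own (-0.96, adjusted p 0.032). The part of these differences in the interactions was not tested.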

How the results depend on the processing

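The 70 calls of single members were recomputed 1747 times, of which 1607 kept the call, 140 lost it and 0 reversed. The counts of members called that moved by over 1.5 times were as follows. With a pseudocount of 64, NAA vs mock gave 11 instead of 7, NAA+CHX vs CHX 1 instead of 0 (CYP51G2, -0.96), and the DEX by NAA and DEX by CHX interactions 1 each (GSTU20). With a mean intensity of at least 50 both DEX interactions again gave 1, GSTU20. With an intensity trend and robust prior NAA+CHX vs CHX gave 1 (CYP51G2, -1.06), the DEX by NAA interaction 1 (GSTU20) and the DEX by CHX interaction 2 (GSTU20 and GSTU28). With array weights the DEX by CHX interaction gave 1. With only the arrays compared, which leaves fewer degrees of freedom, NAA vs mock gave 2, GSTU28 and CYP71B35. CYP71B35 had no call in the main fit, so GSTU28 alone kept its NAA vs mock call. Those of GSTU26 and CYP84A4 ended at an adjusted p of 0.07 and that of GSTU27 at 0.056. In such fits NAA+DEX vs NAA gave 0 and the NAA by CHX interaction 1 (GSTU28). Over all probe sets NAA vs mock, NAA+DEX vs NAA and the interaction called 671 instead of 3042, 61 instead of 667 and 438 instead of 1025. With the replicate number as a block both DEX interactions gave 1 (GSTU20, adjusted p 0.029 and 0.035). Same-numbered arrays showed no pairing, and beside these the block ended the calls of ALDH3F1 in CHX vs mock and CYP71B37 in NAA+DEX vs NAA and no other call of a member.

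Leaving out each array in turn gave 4 to 8 members in NAA vs mock, 8 to 11 in NAA+DEX vs DEX, 17 to 22 in CHX vs mock, 19 to 25 in NAA+CHX vs NAA, 0 to 4 in NAA+DEX vs NAA, 2 to 5 in the NAA by CHX interaction, 0 to 1 in each DEX interaction and 0 in the other comparisons. The 4 in NAA vs mock came without NAA replicate 1. NAA+DEX vs NAA gave 1, 1, 1 and 0 without NAA replicate 1, NAA replicate 2, NAA+DEX replicate 1 and NAA+DEX replicate 2. The NAA by CHX interaction gave 3 without CHX replicate 1 or NAA+CHX replicate 1 and 2 without either NAA array or NAA+CHX replicate 2. The DEX by NAA interaction gave 1 without mock replicate 2, and the DEX by CHX interaction 1 without either mock array. A lone array of a group was assumed to vary like the other groups. Signal over background limits the 17 members with a mean intensity under 50.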
